A study of Homo sapiens with 10 samples.

Results

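The genes described here are those whose transcripts were lowered most by wild-type interferon gamma (IFNG) in A549, an established human line grown from a lung carcinoma. They were chosen by 1 measured value: they are the 211 of 20812 lines (1.01%) of the deposited tables that stand at a log2 ratio of -2 or lower, that is 4-fold or more below untreated cells, in the library labelled IFNG WT A. The series compared untreated cells with cells given wild-type IFNG (IFNG WT) or 1 of 3 proteins labelled GIFN2, GIFN3 and GIFN4, which its title calls partial agonists. Cells were exposed to each of the 4 proteins for 48 h at 62 nM as recorded (a decimal may have been dropped from that entry). There were 5 groups of 2 libraries, which the series describes as biological replicates and which carry the letters A and B. The values of a treated library are log2 ratios, with the untreated library of its own letter as the reference. All groups are the one cell line A549, so the values describe no other cell.

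IFNG is a cytokine that binds the receptor chains IFNGR1 and IFNGR2 on the cell surface. It is best known for raising transcripts of antigen presentation and antiviral defence genes. It also lowers the transcripts of other genes and slows the growth of many epithelial tumour lines. A partial agonist is a ligand that gives less than the full response at saturation.

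No gene can be named. The values in IFNG WT A never rise from one line to the next, while 99.6% of steps between the first 450 names beside them run in alphabetical order, so names and values are not paired. A line is therefore an unnamed gene, called here by its position, and neither the lung origin of the cells nor known IFNG targets could be checked by marker genes. Because the files are sorted by IFNG WT A, the 211 lines are positions 20602 to 20812. The headings above the values name pairs of groups that do not always match the labels of the samples, and the labels are followed here.

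IFNG WT A chose the lines, and the other letter A libraries share its untreated library. The levels in letter A are thus a description only, and the response is read in letter B, with 1 library for each protein and no replicate error. The cut at -2 falls in a dense run of values. Lines 20602, 20603 and 20604, just inside it, stood at -2.002, -2.003 and -2.004 in IFNG WT A, and lines 20601, 20600 and 20599, just outside, at -1.998, -1.998 and -1.997. In IFNG WT B the 3 lines inside stood at -2.08, -0.95 and -1.64 and the 3 outside at -2.14, -2.08 and -1.76, so the cut does not part 2 kinds of line.

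Some of the chosen lines stand at a lower limit of the tables. In letter A 6 of the 211 lines held the same value in all 4 treated files, in letter B 5 did, and 3 did in both, which makes 8 lines (20663, 20677, 20695, 20735, 20762, 20776, 20780 and 20791). Of all lines not at 0, 1.54% in A and 1.73% in B were equal in this way, beside 2.84% and 2.37% of the 211. Line 20780 stood at -3.15 in all 4 files of letter A and at -3.24 in all 4 of letter B, and line 20695 at -2.28 and -2.08. The values fit a floor of 10 reads. With 10 reads in the wild-type library, the ratios of the 6 lines in A give 50 to 101 untreated reads and those of the 5 lines in B give 40 to 89, each within 0.020 reads of a whole number. Line 20780 comes to 101 untreated reads in A and 89 in B. These ratios can thus be read only as the least fall that the tables could show, and they hold no information on differences between the 4 proteins. Lines equal in only 1 letter could differ in the other. GIFN4 was above wild type in line 20791 in A (-2.809 against -3.485) and line 20663 in B (-0.909 against -1.285). The GIFN4 value was slightly below that of wild type in line 20776 in A (-3.069 against -3.035) and line 20762 in B (-2.363 against -2.254). Wild type held 10 reads in both, while GIFN4 held 11 in line 20776 and 10 in line 20762. These 2 values thus do not show GIFN4 below wild type. The other 203 lines are described from here on.

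The same arithmetic gave read numbers for many of the 203 lines (values matched to whole reads within 0.0012 on the log2 scale). They were found for 124 lines in letter A, with 46 to 532 untreated reads and a median of 103.5, and for 117 lines in letter B, with 22 to 481 and a median of 80. For the 114 lines with read numbers in both letters, found separately, the B number was a median of 0.841 times the A number, and in 106 it was between 0.5 and 1.5 times. Many of the falls thus rest on modest read numbers, while lines with many reads are the hardest to match. Wild type stood at exactly 10 reads in 38 of the 124 lines in A and 25 of the 117 in B, against 7 and 4 lines at 11 reads. Where an analogue held exactly the wild-type value and read numbers were found, wild type was at 10 reads in 12 of 12 lines of A and 14 of 15 of B, counted over all 211 lines. Analogues equal to each other also held the wild-type value, with 0 exceptions in A and 1 in B over the 211 lines, so an analogue at the floor may carry the wild-type value. Line 20812, the lowest of all in IFNG WT A, fell from 434 untreated reads to 10 in A and from 313 to 11 in B.

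**Figure D1:**
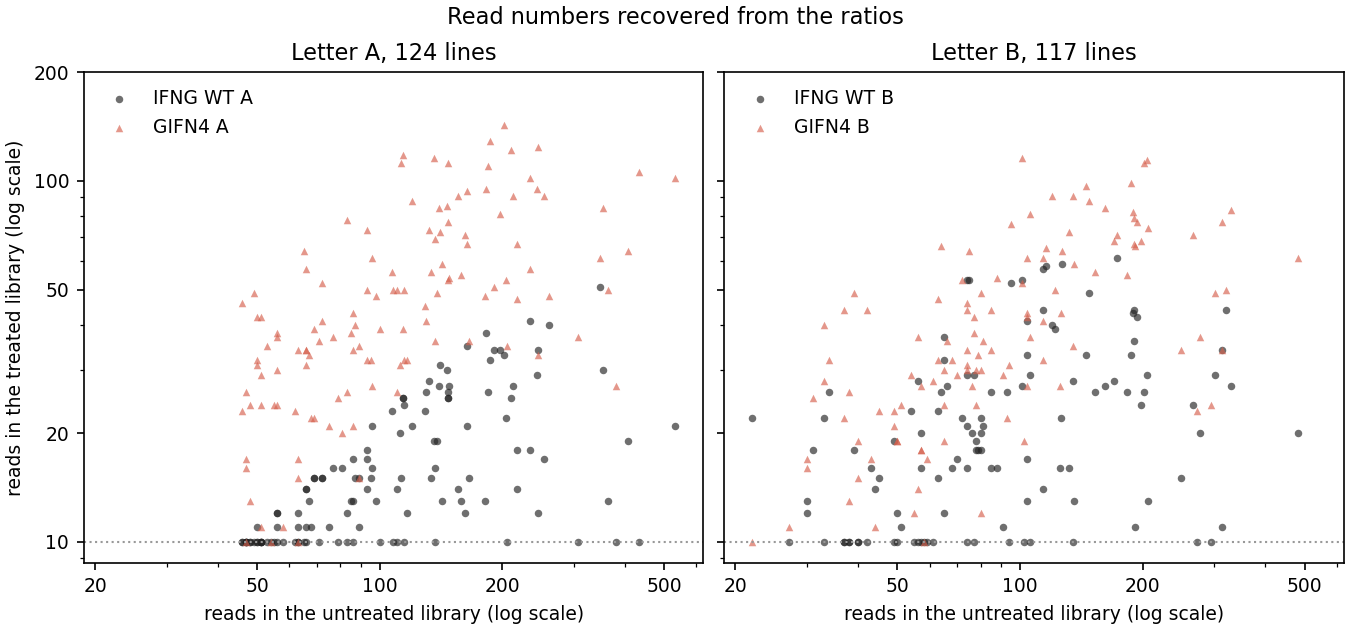
Reads in the treated library against reads in the untreated library for the lines with recovered read numbers, letter A (124 lines) and letter B (117 lines), both axes on a log scale. Black circles are wild-type IFNG, red triangles GIFN4, and the dotted line marks 10 reads. Wild type lies on that line in 38 lines of A and 25 of B, while GIFN4 lies mostly above it.

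The falls seen under wild-type IFNG in A were seen again in B. Over the 203 lines IFNG WT B ran from -4.96 to -0.08 with a median of -2.11, beside -5.26 to -2.002 and a median of -2.32 in IFNG WT A. In IFNG WT B 195 of the 203 lines stood at -1 or lower, where 9.03% of the 13252 lines not at 0 in letter B did, and 119 stood at -2 or lower, against 1.51%. No line was above 0. In bulk RNA, fewer expressing cells and less RNA per cell cannot be told apart. IFNG WT B was the less lowered of the 2 wild-type libraries in 151 of the 203 lines, by a median of 0.29 over all 203, as the choice of lines by low values in A would by itself tend to give.

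The deepest falls of IFNG WT B were deep in A as well. Line 20811 stood at -5.07 in IFNG WT A and -4.96 in B, line 20812 at -5.26 and -4.91, and line 20808 at -4.56 and -4.34. Lines 20804 and 20806 completed the 5 lowest of IFNG WT B, at -4.85 and -4.67, after -4.18 and -4.48 in A. Wild type stood at 10 reads in both letters in lines 20811 and 20804, so these values are the least fall that the tables could show. In line 20812 it stood at 10 reads in A, again a least value, and at 11 in B, just above the floor. In line 20806 it stood at 21 and 20 reads. All 5 are also among the 10 lines at -4 or lower in IFNG WT A. Among the 35 lines chosen at -3 or lower, all 35 stood at -1 or lower in IFNG WT B.

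At the other end, 8 of the 203 lines were above -1 in IFNG WT B. The 5 highest were lines 20639, 20619, 20637, 20737 and 20661, at -0.08, -0.47, -0.57, -0.59 and -0.67, after -2.08, -2.04, -2.08, -2.52 and -2.14 in A. All 5 had between 22 and 75 untreated reads in letter B. Line 20639 had 48 untreated reads and 10 wild-type reads in A but 22 and 22 in B, and line 20661 had 50 and 10 in A and 33 and 22 in B.

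**Figure D2:**
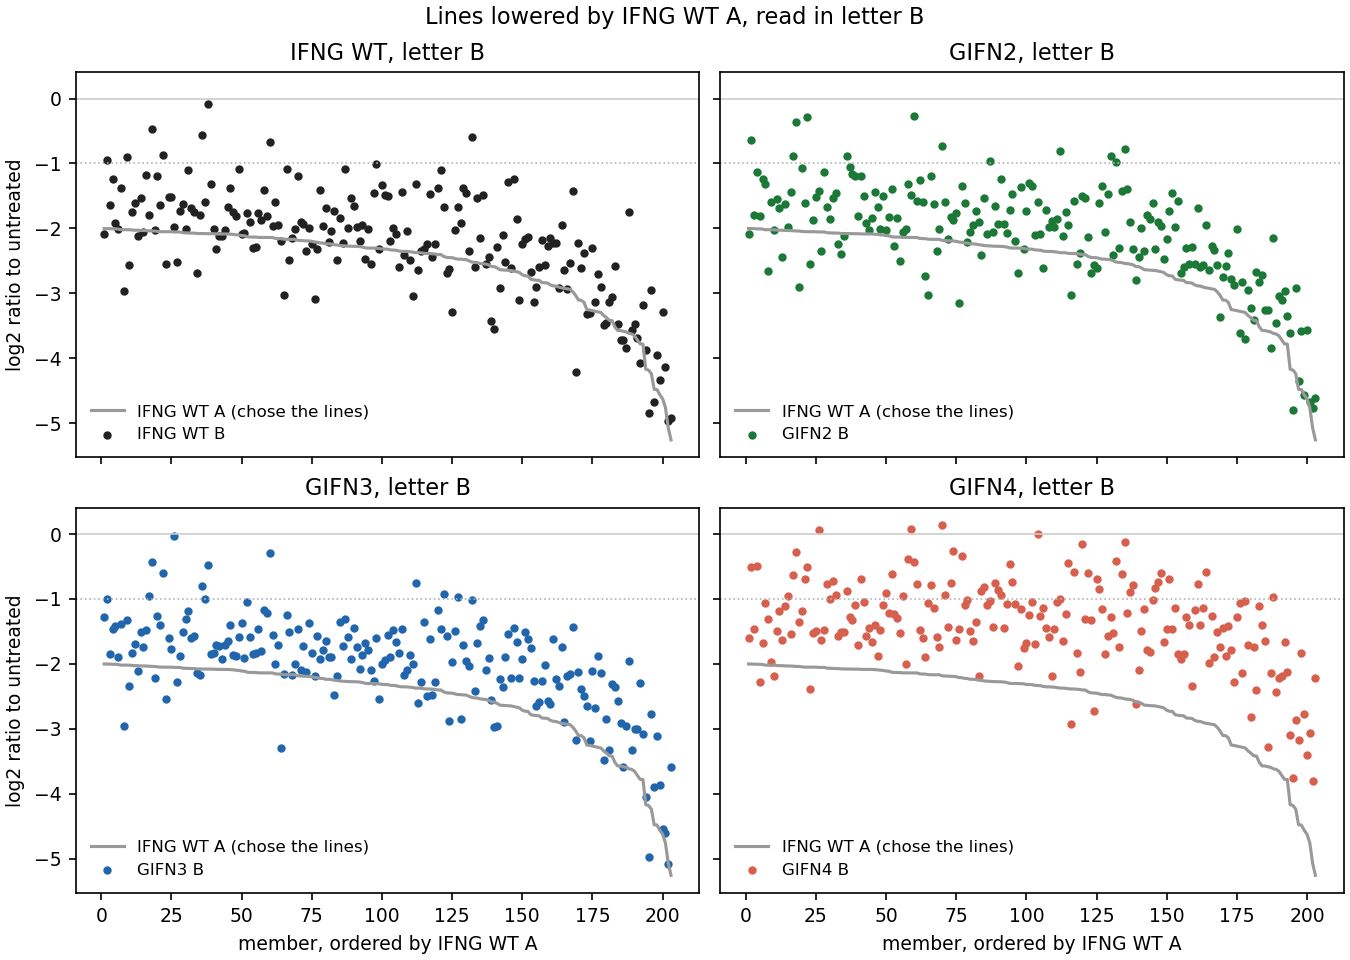
Log2 ratio to untreated cells of the 203 lines in the 4 treated libraries of letter B, 1 panel per protein, with the lines ordered from left to right by their falling IFNG WT A value. The grey line is IFNG WT A, which chose the lines. Points are single lines, and the dotted line marks -1. In wild type, GIFN2 and GIFN3 between 191 and 195 points lie at or below -1, in GIFN4 151.

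GIFN2 and GIFN3 lowered the lines nearly as far as wild type did, and GIFN4 lowered them less. In letter B, GIFN2 ran from -4.80 to -0.27 with a median of -1.99, GIFN3 from -5.08 to -0.03 with a median of -1.89, and GIFN4 from -3.81 to 0.14 with a median of -1.40. The lines at -1 or lower numbered 191, 193 and 151 in the order GIFN2, GIFN3 and GIFN4, where 9.06%, 8.35% and 5.77% of all lines not at 0 did. At -2 or lower stood 100, 86 and 32, against 1.3%, 1.06% and 0.498% of all lines. In all 4 libraries of letter B together, 145 of the 203 lines were at -1 or lower, against 3.53% of all lines. A further 41 were so under wild type, GIFN2 and GIFN3 and not under GIFN4, against 1.97% of all lines.

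As a share of the mean wild-type fall in letter B (-2.23 over the 203 lines), GIFN2 reached 94.3%, GIFN3 90.5% and GIFN4 63.1%. With the letters exchanged, that is with 191 lines chosen at -2 or lower in IFNG WT B and read in letter A, the shares were 91.5%, 86.8% and 56.0%. GIFN4 thus stood apart in both letters, by more than the gap between the letters. Over all lines not at 0 in letter A, the median was -0.074 in IFNG WT A. It was 0.040, 0.032 and 0.071 in the GIFN2, GIFN3 and GIFN4 libraries of that letter. The letter A shares were not centred, and the part of this offset in the gap between the letters was not tested. An exact two-sided permutation test of 2 libraries against 2 cannot go below p = 0.333, so no test is attached to the shares. For comparison, the 1189 lines between -1 and -2 in IFNG WT A gave 99.7%, 95.5% and 74.2% in letter B, and the 226 lines raised to 2 or higher gave 82.7%, 84.5% and 66.3%. Whether these shares differ from those of the 203 lines was not tested.

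**Figure D3:**
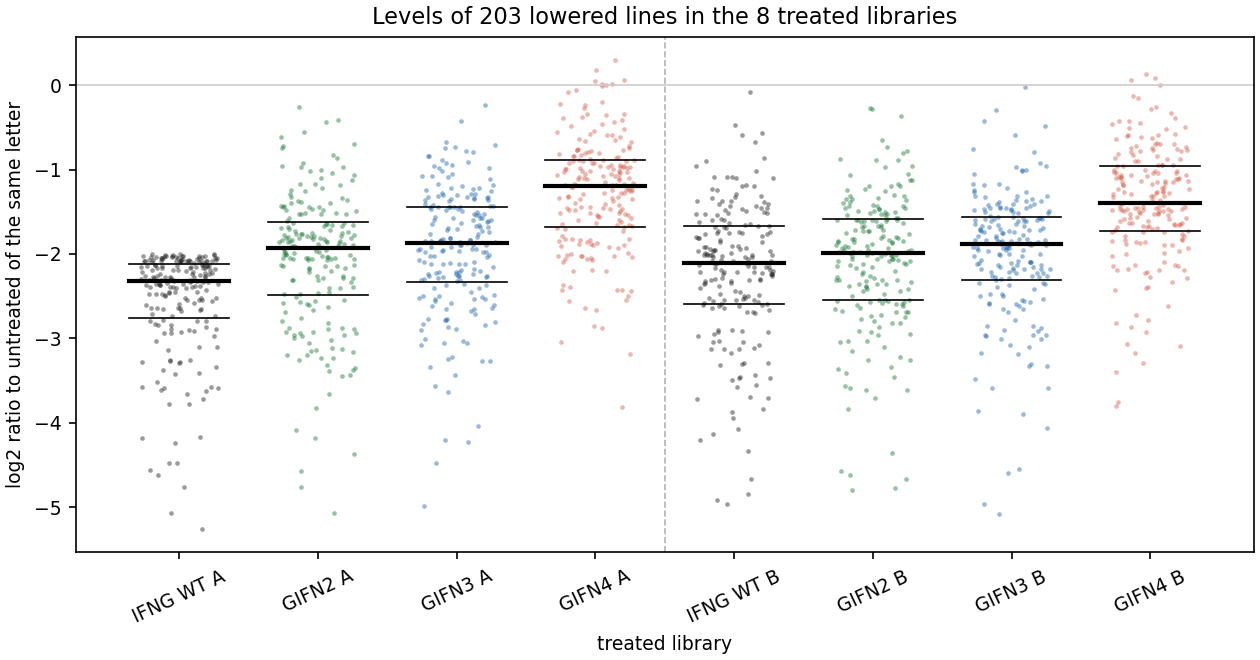
Log2 ratio of the 203 lines to untreated cells (library of equal letter) in each of the 8 treated libraries. Points are single lines, thick bars medians and thin bars quartiles. IFNG WT A ends at -2.002 because it chose the lines. In both letters GIFN4 has the highest median, -1.19 in A and -1.40 in B.

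The comparison of each analogue with wild type was next made line by line within letter B, where the untreated library cancels. GIFN4 was above wild type, that is less lowered, in 180 of the 203 lines and below it in 23, with a median difference of 0.79 on the log2 scale. Of all lines, 49.4% lay above wild type. The difference was 1 or more in 79 lines, where 2.24% of all lines reached it. GIFN2 was above wild type in 121 lines and below in 71, with a median difference of 0.12, and GIFN3 in 130 and 68 with 0.20, against 44.7% and 47.8% of all lines above. A difference of 1 or more was seen in 6 lines for GIFN2 and 7 for GIFN3, beside 0.483% and 0.506% of all lines. These counts come from 1 library a protein, and equal values count in neither direction.

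**Figure D4:**
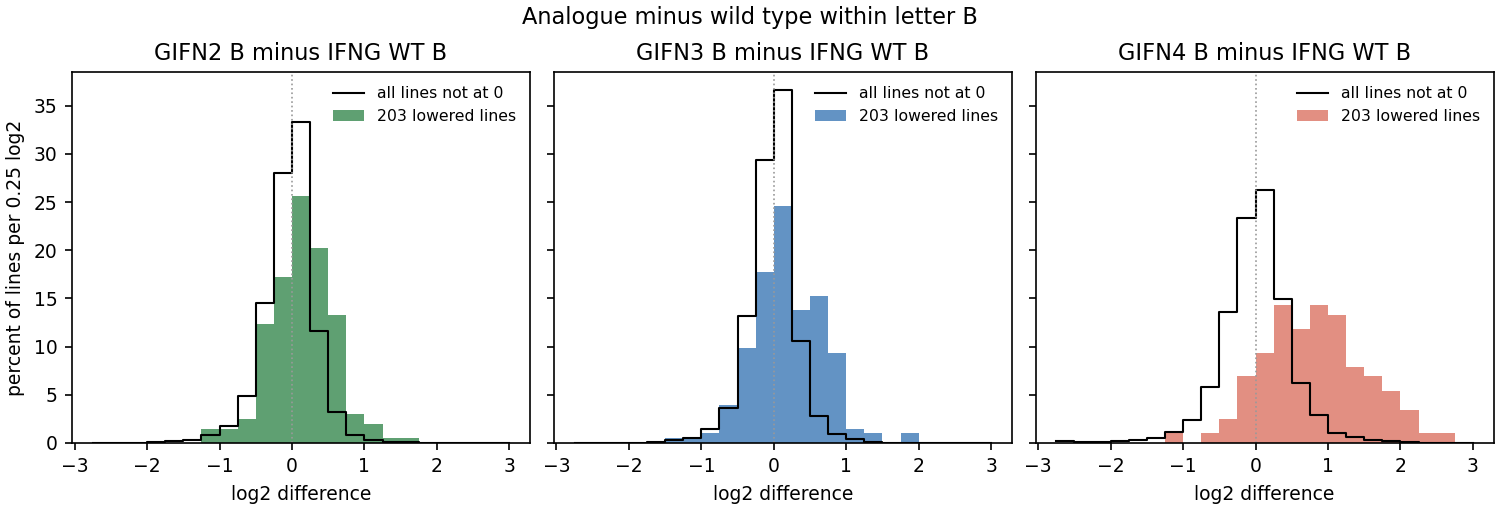
Distribution of the log2 difference of each analogue from wild type within letter B, in steps of 0.25. Filled bars are the 203 lowered lines and the black outline all 13252 lines not at 0 in letter B, each as a percent of its own lines. The bars of GIFN4 lie to the right of 0, with a median of 0.79, while those of GIFN2 and GIFN3 have medians of 0.12 and 0.20.

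The 5 widest gaps between GIFN4 and wild type in letter B were at lines deeply lowered by wild type there. GIFN4 stood above 0 in only 4 of the 203 lines, so a wide gap itself needs a deep wild-type fall. Line 20812 stood in letter B at -4.91 (wild type), -4.62 (GIFN2), -3.59 (GIFN3) and -2.22 (GIFN4). Line 20729 stood at -3.29, -2.62, -1.97 and -0.69 in the same order, and line 20775 at -4.21, -3.37, -3.17 and -1.73. In these lines, picked for their gap, the 4 proteins kept 1 order in letter B, from wild type as the lowest through GIFN2 and GIFN3 to GIFN4. Line 20801 stood at -4.07, -2.96, -2.30 and -1.67, and line 20807 at -3.95, -3.58, -3.11 and -1.83. The same order held for these as well. In letter A, lines 20801 and 20807 kept it, while lines 20812, 20729 and 20775 did not. Line 20812 stood there at -5.26, -4.08, -4.23 and -2.02, with GIFN3 below GIFN2. GIFN4 was the highest of the 4 in both letters in all 5 lines.

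In reads, line 20801 went from 206 untreated to 13 with wild type, 27 with GIFN2, 53 with GIFN3 and 74 with GIFN4 in letter B. In letter A it went from 218 to 14, 23, 40 and 67. The libraries differ in depth, so these read numbers are not yet scaled, but both letters show the same order for this line.

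A few lines went the other way. Line 20639 stood at -0.08 under wild type and -1.33 under GIFN4 in letter B, line 20610 at -0.90 and -1.97, line 20720 at -2.24 and -2.93, line 20701 at -1.46 and -2.03, and line 20686 at -1.74 and -2.19. These are the 5 smallest differences. In letter A, GIFN4 was higher than wild type in lines 20639 (-0.99 against -2.08), 20610 (-0.81 against -2.02), 20720 (-1.34 against -2.39) and 20701 (-1.84 against -2.30). The choice of lines by low values of IFNG WT A would by itself tend to give this. Letter A thus cannot show whether these reversals repeat. Line 20686 stood at -2.42 under GIFN4 against -2.25 under wild type in A, but both libraries held 10 reads there, so the 2 values do not show a difference in reads. In B it held 14 wild-type and 11 GIFN4 reads.

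GIFN4 was the least lowered of the 4 proteins in 158 of the 203 lines of letter B, where it was the highest of the 4 in 33.6% of all lines. Wild type was the lowest of the 4 in 96 lines (47.3%), where it was so in 29% of all lines. GIFN2 was the lowest in 50 (24.6%), GIFN3 in 43 (21.2%) and GIFN4 in 6 (2.96%), against 22.6%, 16.3% and 27.7% of all lines. The bottom of the order was thus most often wild type, with GIFN2 and GIFN3 nearer to their shares of all lines. The top belonged mostly to GIFN4.

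The gap did not vanish at small or large falls. Among the 131 lines between -2 and -2.5 in IFNG WT A, the mean in letter B was -1.87 under wild type and -1.23 under GIFN4, a share of 65.6%. The 37 lines between -2.5 and -3 had -2.33 and -1.32 (56.6%), the 25 between -3 and -4 had -3.17 and -1.84 (58.0%), and the 10 at -4 or lower had -4.19 and -2.999 (71.5%). GIFN2 ranged from 89.5% to 98.9% and GIFN3 from 85.6% to 96.6% over these 4 groups. The shares follow no single direction with the size of the fall. Each group held lines with wild type at 10 reads in letter B, among them lines 20804 and 20811 in the deepest. The wild-type falls of such lines are least values, and their part in the shares of these groups was not tested.

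The share was also read by depth. In letter B 35 of the 203 lines had at least 1 treated library at 10 reads or an analogue exactly equal to wild type. Line 20774 is among them through a GIFN3 value equal to a wild type of 41 reads. The GIFN4 share in the 35 lines was 69.3%. It was 62.8% in the 82 lines with read numbers found and none at 10, and 60.6% in the 86 lines whose read numbers could not be found. GIFN4 was above wild type in 30, 72 and 78 of the lines of these 3 groups. In 25 of the 35 lines of the first group wild type itself stood at 10 reads, and GIFN4 could not hold fewer. The count of 30 is thus in part fixed by the grouping and is not read as a difference. In the groups of 82 and 86 lines GIFN4 was less lowered than wild type in most lines, where 49.4% of all lines lay above wild type. What part the floor plays in the difference between the shares was not tested.

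In a difference between 2 analogues the untreated library cancels, so both letters could be used. The choice of lines by IFNG WT A still touches such a difference where an analogue carries exactly the wild-type value. An equal value was present in 20 of the 203 lines, and the other 183 held none. GIFN4 was above GIFN2 in both letters in 166 of the 203 lines, and below it in both in 9, where 37.9% and 24.6% of the 13276 lines tested were. It was above GIFN3 in both letters in 176 and below in 4, against 37.7% and 26.4%. In the 183 lines with no equal value, GIFN4 was above GIFN2 in both letters in 151 and below in 9, and above GIFN3 in 159 and below in 4. GIFN4 was the highest of the 3 analogues in both letters in 154 lines, against 26.5% of all lines. The median difference of GIFN4 from GIFN2 was 0.77 in A and 0.67 in B, and from GIFN3 0.65 in A and 0.62 in B, while over all lines tested no such median exceeded 0.05. Across the 203 lines, the GIFN4 minus GIFN2 differences of A and B had a Pearson r of 0.709, and those of GIFN4 minus GIFN3 one of 0.493. The lines are not independent replicates, and the libraries of a letter were shared by all lines.

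**Figure D5:**
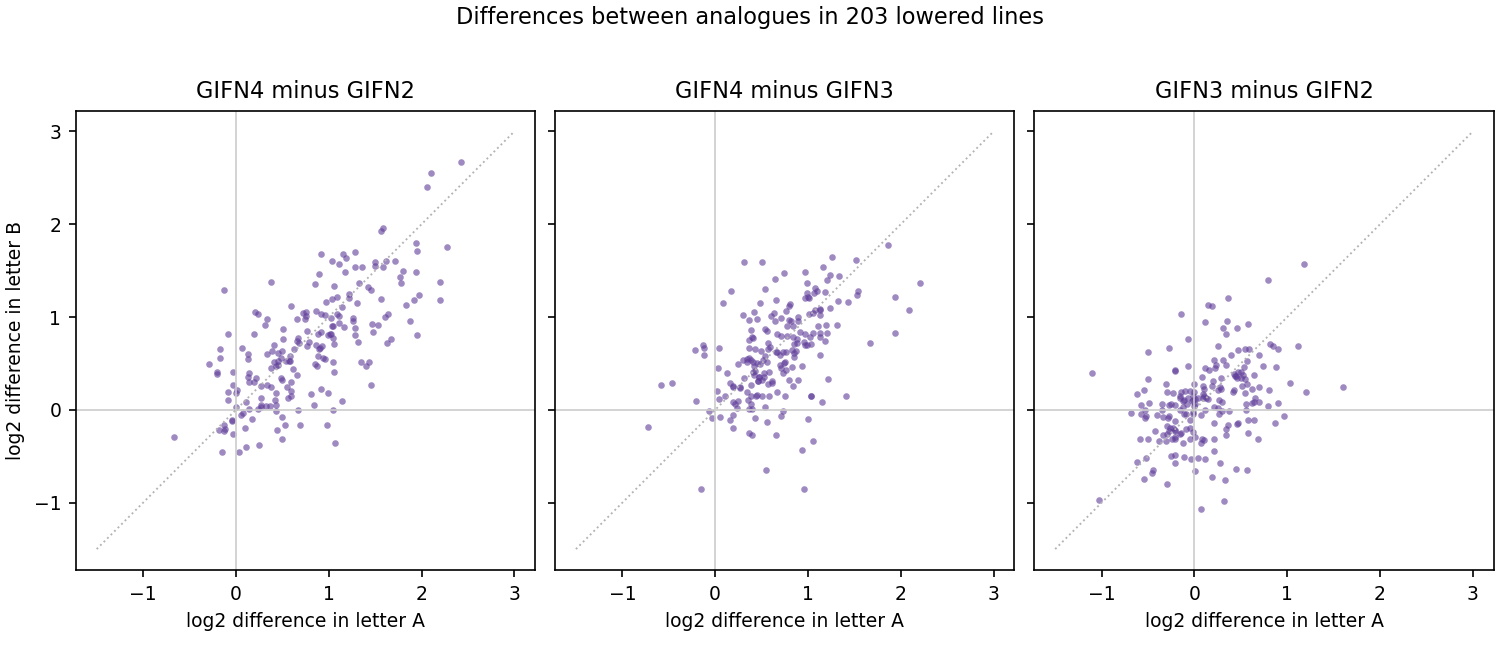
Log2 difference between 2 analogues in letter A (horizontal) and letter B (vertical) for the 203 lines, with points as single lines and the dotted diagonal marking equal values. For GIFN4 minus GIFN2, 166 lines lie in the upper right corner, and for GIFN4 minus GIFN3, 176. For GIFN3 minus GIFN2, 81 lie in that corner and 50 in the lower left.

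In limma on the 6 analogue libraries, with Benjamini-Hochberg adjustment over all 13276 lines, none of the 203 lines passed an adjusted p of 0.05. The percentage of all lines called was 0 in each direction as well, and the smallest adjusted p was 0.0557 (GIFN4 against GIFN2) and 0.0912 (GIFN4 against GIFN3). At an unadjusted p under 0.05, 125 of the 203 lines were higher under GIFN4 than under GIFN2 and 0 lower, against 13.5% of all lines higher and 6.67% lower. Against GIFN3, 136 were higher and 1 lower, with 11.8% of all lines higher and 6.71% lower. The count of calls depended on the fit. With all 10 libraries in the model, 40 of the 203 lines passed in the GIFN2 comparison and 15 in the GIFN3 comparison, all higher under GIFN4, where 0.685% and 0.158% of all lines were called higher. That model takes its spread in part from IFNG WT A, which chose the lines, so these counts are a description and support nothing. On the 6 analogue libraries alone, 27 lines passed for GIFN2 when lines with any 0 were dropped (0.467% of all lines higher), 24 with each library centred on its median (0.392%) and 48 when equal values were dropped (1.23%). The last of these settings gave 15 lines for GIFN3 (0.178%).

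The lines called in the fit on all 10 libraries with the largest differences, picked out after their values were seen, show the gap at its widest only. Over the 203 lines the median GIFN4 minus GIFN2 difference in limma on 6 libraries was 0.696. In letter A, line 20786 stood at -3.19 with GIFN2, -2.01 with GIFN3 and -0.77 with GIFN4, and in letter B at -3.71, -2.14 and -1.04. Its GIFN4 minus GIFN2 difference was 2.55 ± 0.12 (SE, n = 2; adjusted p = 0.0557, limma on 6 libraries). In reads, it held 156 untreated, 16 GIFN2 and 91 GIFN4 reads in A, and 205, 16 and 114 in B. Line 20784 stood at -3.23, -2.65 and -1.13 in A and at -3.61, -2.69 and -1.07 in B. Its GIFN4 minus GIFN2 difference was 2.32 ± 0.14, with the same adjusted p in limma. Line 20808, with -4.38, -3.56 and -2.44 in A and -4.57, -3.86 and -2.78 in B, had a difference of 1.87 ± 0.07 and again the same adjusted p. GIFN3 lay between GIFN2 and GIFN4 in both letters in these 3 lines, which were picked for a large GIFN4 minus GIFN2 difference.

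Lines 20812 and 20807 had differences of 2.23 ± 0.32 and 2.01 ± 0.15 between GIFN4 and GIFN2 (adjusted p = 0.0923 and 0.0590 on 6 libraries, limma). Against GIFN3 the largest of all 203 lines, again picked after their values were seen, were lines 20787, 20812 and 20779, at 1.82 ± 0.22, 1.79 ± 0.32 and 1.59 ± 0.30 (adjusted p = 0.112, 0.150 and 0.157 on 6 libraries, limma). Line 20787 stood at -3.34 and -3.49 in A and B under wild type, with 10 reads in each, so its wild-type fall is a least value. It stood at -3.17 and -2.95 under GIFN2, at -3.05 and -3.48 under GIFN3, and at -1.19 and -1.71 under GIFN4. In line 20779 the GIFN3 library held 10 reads in A and 11 in B, so that difference too is limited by the floor.

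In 21 of the 203 lines GIFN4 was above both other analogues by 1 or more in both letters, where 28 lines of the whole table were (0.211%). In 5 lines, 20617, 20621, 20648, 20658 and 20733, GIFN4 lay within 0.25 of both other analogues in both letters, beside 36.9% of all lines. Line 20648 stood at -1.40, -1.45 and -1.51 under GIFN2, GIFN3 and GIFN4 in A and at -1.67, -1.86 and -1.87 in B. Line 20658 stood at -1.80, -1.85 and -1.66 in A and at -2.01, -1.81 and -2.01 in B. GIFN4 did not stand apart from GIFN2 and GIFN3 in these 5 lines. In letter A all 3 analogues were above wild type in each, as the choice by low IFNG WT A values would tend to give. In letter B, line 20617 stood at -1.179 under wild type and -1.434, -1.479 and -1.536 under GIFN2, GIFN3 and GIFN4. Line 20733 stood at -1.375 against -1.465, -1.717 and -1.569, so in both lines all 3 analogues were below wild type. In lines 20621, 20648 and 20658 some analogues were above wild type in B and others below. The 5 lines were singled out by the closeness of their analogue values, so no test is attached.

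GIFN3 and GIFN2 differed by little at the median of the 203 lines, and no line passed the test between them. GIFN3 was above GIFN2 in both letters in 81 lines and below in 50, against 30% and 23.7% of all lines, with a median difference of 0.09 in A and 0.08 in B. The differences of A and B had a Pearson r of 0.383 across the 203 lines. In limma 0 of the 203 lines passed, on 6 libraries and on 10, and the smallest adjusted p on 6 was 0.550. At an unadjusted p under 0.05, 42 lines were higher under GIFN3 and 16 lower, against 4.69% of all lines higher and 3.56% lower. The 95% interval of a line reached a median of 0.41 to either side, and 77.8% of the 203 lines had an interval that lay wholly between -1 and 1, beside 92.6% of all lines. Line 20786 was the one member with GIFN3 above GIFN2 by 1 or more in both letters (0.0301% of all lines), at 1.38 ± 0.12 (SE, n = 2; adjusted p = 0.550, limma).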

How the data were processed

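A549 RNA was made into AmpliSeq human transcriptome libraries, a method based on panels of primers for chosen targets, and sequenced on the Ion S5 XL instrument, per the labels' protocols and the series' design text. The submitters' processing notes name genome build hg19. The counting and scaling of reads are not stated in the labels or file headers. The authors deposited 1 column of log2 values per library, named log2(DER) per the file headers. The untreated columns are 0 throughout, so each value was read as a log2 ratio whose reference is the untreated library with its letter. How the ratios of the analogues were formed is not stated, and equal values were nearly always equal to wild type.

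The chosen lines, lists and comparisons were set with earlier results of these data known. The design took -2 in IFNG WT A to choose lines and letter B to read them, and named by rank the lines at either end of each measure. As no line passed the main test, lines called with all 10 libraries, and the lines with the largest GIFN4 minus GIFN3 differences, are named instead. Between 12835 and 13137 lines per treated library were not at 0. Depth relative to untreated was taken from the most frequent value other than 0 (taken to be 10 reads in both libraries) and ran from 0.882 to 1.27. Absolute depth is unknown. Untreated numbers of 10 to 2000 reads, with treated numbers of at least 10, were tried, and a match was kept where its summed chance was under 0.005. Reads carry no molecular identifiers, so no counting interval is given.

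The 3 comparisons between analogues used limma (version 3.58.1, R version 4.3.3; empirical Bayes with robust option, terms for group and letter) on 6 libraries, over 13276 lines not at 0 in at least 2 of them, and the fit was tested on simulated data. Between analogues, the A minus B deviations had correlations from 0.650 to 0.700. Ratios of a letter share an untreated library, so the letter is a replicate block by construction. The labels tie no day or batch to it. With no separate cultures named beyond "biological replicates", p-values measure the spread between these libraries.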

Additional observations from a re-analysis of the deposited data

How the results depend on the processing

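Without the replicate block, limma on the 6 libraries called 0 of the 203 lines in each of the 3 comparisons, as with it, and leaving out each library in turn gave 0 to 0, which says nothing of stability since no line was called at the start (the lone library of a group is then assumed to vary like the others). Other settings did change the count for GIFN4 against GIFN2: 40 lines with all 10 libraries (139 of all lines), 27 over lines with no value at 0 (89), 24 with each library centred on its median (83) and 48 of 183 with equal values left out (236). For GIFN4 against GIFN3 they were 15 with all 10 libraries and 15 with equal values left out. Every one of these calls was higher under GIFN4, and the cause of the change in count was not tested. GIFN3 against GIFN2 stayed at 0 in each. Choosing at -3 or lower left 35 lines, of which 35, 35, 35 and 34 stood at -1 or lower under wild type, GIFN2, GIFN3 and GIFN4 in letter B. With the letters exchanged, the shares of the wild-type fall were 91.5%, 86.8% and 56.0%. Centring, medians, leaving out equal values and counting the 8 equal lines (this last chosen after seeing the data) moved the counts at -1 or lower by under 1.5 times and the shares by less than the spread between the letters. Exchanging the letters, for the counts a setting also added after seeing the data, moved the counts by under 1.5 times too. Depth limits the lines at 10 reads, whose falls may be larger than printed.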
